A study of Mus musculus with 6 samples.

Results

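The 9 genes of circadian output described here were measured in livers of Dnajb4-/- and Dnajb4+/+ mice: the PAR bZIP activators Dbp, Tef and Hlf, their repressor Nfil3, and the E-box driven outputs Usp2, Ciart, Wee1, Bhlhe40 and Bhlhe41. They were chosen by their roles in the clock pathway, with the lower values of Dbp, Usp2 and Ciart in this same contrast already known, so their genotype differences are given as a description without a test. Their probe sets, groups of oligonucleotides against a transcript, were taken where the platform annotation gives exactly 1 gene symbol, which yielded 16 of 34945 probe sets and 9 of 18193 genes. Dbp stood at 12.1% of its Dnajb4+/+ level in Dnajb4-/- livers, Usp2 at 22.8%, Ciart at 31.3% and Wee1 at 37.7%. Tef, Hlf and Bhlhe40 were lower by smaller amounts, Nfil3 was 1.97-fold higher, and Bhlhe41 overlapped between the genotypes.

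Dnajb4 encodes HLJ1, a heat shock protein of the DnaJ family. Dnajb4-/- mice are knockouts, made as described in earlier work that the paper cites, and Dnajb4+/+ mice are the wild type. The labels give all mice as male C57BL/6. They were aged 6 to 8 weeks and untreated, and the paper's methods give 12 h of light and 12 h of dark with free access to food and water. RNA of 3 Dnajb4-/- and 3 Dnajb4+/+ livers, labelled as separate mice, was hybridized to 6 Affymetrix arrays. The clock time at which the livers were taken is not given in the sources used here, so a difference in the time of collection and a difference in genotype cannot be told apart for transcripts that cycle over the day.

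In the mammalian clock, the heterodimer of Bmal1 (encoded by Arntl) and Clock binds E-boxes and drives its own repressors as well as output genes. Among the outputs are the PAR bZIP factors, named after their proline- and acidic amino acid-rich domain, which bind D-boxes as dimers and activate genes of drug, lipid and bile acid metabolism in the liver. Nfil3, also known as E4BP4, is a related bZIP repressor that competes for the same D-boxes and cycles in opposite phase to Dbp.

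The arrays had median intensities from 31.8 to 32.5, and gene values correlated at 0.9981 to 0.9985 between arrays of a genotype and at 0.9935 to 0.9948 between genotypes. Of the probe sets for Dnajb4, 1451177_at measured 466.66, 479.93 and 452.64 in Dnajb4-/- livers, against 587.57, 565.59 and 612.49 in Dnajb4+/+ livers, and the other 2 overlapped. Which exons these probe sets read relative to the targeted region is not given in the sources used here, so they do not check the genotype labels. Xist, the RNA of the inactive X chromosome, averaged 16.2 ± 1.58 in Dnajb4-/- and 384.68 ± 19.4 in Dnajb4+/+ arrays (SD, n = 3), and the summed level of 3 Y-linked genes ranged from 127.44 to 133.6 in Dnajb4-/- and from 106.99 to 120.41 in Dnajb4+/+ arrays. These sums include dim probe sets. The brightest of each gene averaged 975.29 in Dnajb4-/- and 725.94 in Dnajb4+/+ arrays for Eif2s3y, 132.39 and 106.16 for Kdm5d, and 115.15 and 99.7 for Uty. The dimmer Kdm5d probe sets 1452562_at and 1452563_a_at went the other way, with log2 differences of -0.15 and -0.12. The Dnajb4+/+ arrays thus carried Xist together with Y-linked RNA against the label male, and all 11 measured genes of a female-high liver list were lower in Dnajb4-/- livers, with sums of 256.63 to 268.99 in Dnajb4-/- and 7765.03 to 8181.99 in Dnajb4+/+ arrays. All 3 Dnajb4+/+ arrays share this, so it cannot be told apart from genotype, and no result could be given without it. Whether an array holds RNA of 1 mouse or of several was not tested. The SDs, standard errors and p-values given here therefore describe arrays and may not measure the spread between mice. Markers of skeletal muscle (9 of 10 lower, sums of 298.99 to 314.72 in Dnajb4-/- and 674.19 to 731.55 in Dnajb4+/+ arrays) and of Kupffer cells and macrophages (9 of 10 lower, 4220.18 to 4428.04 in Dnajb4-/- and 5394.1 to 5665.74 in Dnajb4+/+ arrays) also differed. Markers of hepatocytes were split in direction (1 lower and 2 higher of 9). Their sums, 130251.04 to 131528.9 in Dnajb4-/- and 132891.11 to 133503.72 in Dnajb4+/+ arrays, did not overlap. Those of lymphocytes and NK cells (1 lower of 8, 198.63 to 223.68 in Dnajb4-/- and 207.93 to 221.39 in Dnajb4+/+ arrays) overlapped in sum. By the same threshold of the fit, adjusted p under 0.05, 9.57% of all genes were lower and 5.09% higher. The 3′ to 5′ ratio of control probe sets, a measure of RNA integrity, was 1.45 ± 0.0265 in Dnajb4-/- and 1.17 ± 0.0134 in Dnajb4+/+ arrays for Gapdh, and 3.17 ± 0.0602 in Dnajb4-/- and 2.65 ± 0.0485 in Dnajb4+/+ arrays for Actb (SD, n = 3; exact two-sided permutation p = 0.1 for each, the smallest that 3 against 3 allow). The part of these differences in the values below was not tested. In bulk liver, fewer cells of a type and less RNA per cell cannot be told apart.

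Because the genes were grouped by E-box and D-box biology, their promoters were searched in RefSeq windows of the mouse build GRCm38.p6 that run from 250 bases before to 50 bases after each transcription start. The table held 7 of the 9 genes in 8 windows, Tef having 2 starts, and Wee1 and Bhlhe40 were not in it. The E-box CACGTG, which Bmal1 and Clock bind, was found in 4 of the 8 windows, those of Tef, Ciart and Bhlhe41, and in 7.15% of all 32851 windows. The windows of Dbp, Hlf, Nfil3 and Usp2 did not hold these letters, which says nothing of sites elsewhere in the genes. The 250 bases before the start are shown for the windows with an E-box and, as the window of the most strongly lowered gene, for Dbp, 5′ to 3′ on the strand of the gene, with E-boxes in capitals.
Ciart (chr3:95882229-95882478, minus strand): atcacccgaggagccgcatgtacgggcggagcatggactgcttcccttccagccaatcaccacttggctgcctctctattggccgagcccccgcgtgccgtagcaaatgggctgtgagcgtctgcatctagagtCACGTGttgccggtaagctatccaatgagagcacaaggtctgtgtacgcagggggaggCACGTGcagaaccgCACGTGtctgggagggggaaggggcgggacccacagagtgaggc
Tef, start 1 (chr15:81802423-81802672, plus strand): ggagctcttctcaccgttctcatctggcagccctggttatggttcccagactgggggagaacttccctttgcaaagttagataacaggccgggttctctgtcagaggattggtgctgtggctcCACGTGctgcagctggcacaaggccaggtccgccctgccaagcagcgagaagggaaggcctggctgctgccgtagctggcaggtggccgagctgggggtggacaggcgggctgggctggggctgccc
Tef, start 2 (chr15:81811164-81811413, plus strand): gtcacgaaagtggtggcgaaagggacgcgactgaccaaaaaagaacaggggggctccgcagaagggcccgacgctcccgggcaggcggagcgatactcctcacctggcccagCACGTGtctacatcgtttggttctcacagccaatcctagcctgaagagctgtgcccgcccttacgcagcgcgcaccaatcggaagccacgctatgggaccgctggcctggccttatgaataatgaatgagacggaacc
Bhlhe41 (chr6:145865421-145865670, minus strand): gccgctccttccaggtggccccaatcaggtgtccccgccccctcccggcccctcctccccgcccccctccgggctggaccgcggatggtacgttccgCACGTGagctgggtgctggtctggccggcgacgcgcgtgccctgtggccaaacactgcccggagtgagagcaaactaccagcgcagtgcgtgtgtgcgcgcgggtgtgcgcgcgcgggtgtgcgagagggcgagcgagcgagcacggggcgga
Dbp (chr7:45704997-45705246, plus strand): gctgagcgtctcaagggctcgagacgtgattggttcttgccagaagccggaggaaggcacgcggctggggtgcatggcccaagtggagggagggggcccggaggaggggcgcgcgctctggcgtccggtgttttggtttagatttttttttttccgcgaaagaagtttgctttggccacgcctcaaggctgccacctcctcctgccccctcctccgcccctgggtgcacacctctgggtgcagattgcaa

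Ciart held 3 E-boxes, of which the pair nearest the start begins at -58 and -44 and is separated by 8 bases, and the third begins at -116. The single E-boxes of Tef began at -127 from the upstream start and at -138 from the downstream start, and that of Bhlhe41 at -153. No window of the 9 genes held the E′-box CACGTT (4.68% of all windows), the D-box as TTATGTAA or TTACGTAA (1.06%) or the ROR element (0.384%), each searched on both strands. With 1 mismatch allowed, a D-box was found in 1 of the 8 windows, that of Tef, against 17.4% of all windows. CACGTG reads the same on both strands and was counted once per position, and no match overlapped another motif. The GC content of the 250 bases ranged from 60.4% to 81.6%. A match is a description of letters in the window and was not tested for binding. The genes with a match had log2 differences between the genotypes of -1.67 (Ciart), -0.85 (Tef) and 0.20 (Bhlhe41), and those without had -3.05 (Dbp), -2.14 (Usp2), -0.54 (Hlf) and 0.98 (Nfil3), as detailed with the values per array.

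**Figure D1:**
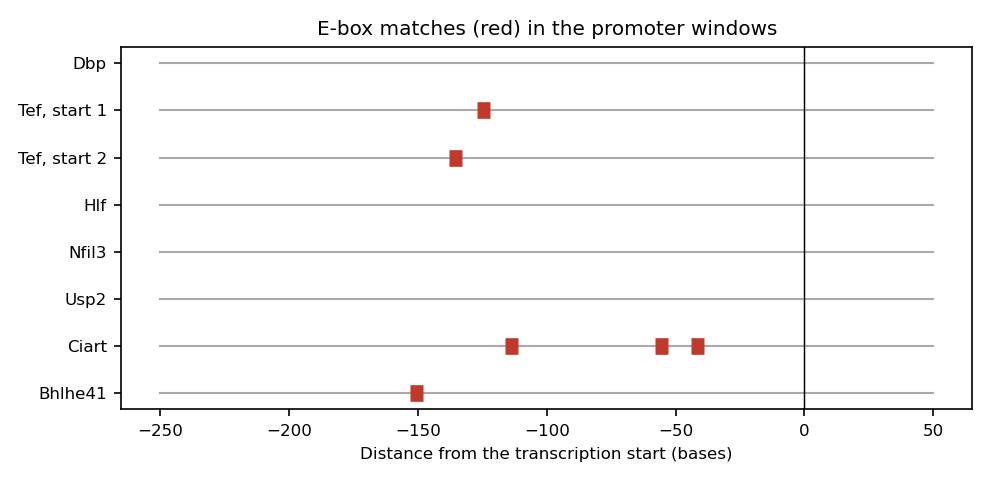
E-box matches (CACGTG, either strand) in the 8 RefSeq promoter windows of 7 of the genes, plotted by distance from the transcription start in bases. Ciart holds 3 matches, each start of Tef and Bhlhe41 hold 1, and the windows of Dbp, Hlf, Nfil3 and Usp2 hold none.

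Dbp, the albumin D-box binding protein and the PAR bZIP factor with the largest daily swing in liver, showed the largest difference of the 9 genes. Its gene-level values, the mean of its probe sets on the log2 scale put back on the intensity scale, were 215.09, 198.47 and 211.58 in Dnajb4-/- livers, against 1727.27, 1697.9 and 1739.97 in Dnajb4+/+ livers. The genotypes lay far apart, with a spread between arrays of each that was small beside the gap. The SD over the 3 arrays was 8.76 around a mean of 208.38 in Dnajb4-/- and 21.6 around 1721.72 in Dnajb4+/+. This corresponds to a log2 difference, Dnajb4-/- minus Dnajb4+/+, of -3.05 (SE 0.04), 8.27-fold lower and with rank 11 from the lowest of all genes. Both probe sets agreed closely, with -3.15 for 1418174_at and -2.95 for 1438211_s_at. In the order of all genes the named genes next to Dbp were Mt2 (a metallothionein, -3.16), Acot3 (a peroxisomal acyl-CoA thioesterase, -3.18) and Cyp2b13 (a cytochrome P450, -3.67) on the lower side, and Slc22a27 (a solute carrier, -2.73), Tnnc2 (a troponin of skeletal muscle, -2.25) and Usp2 (-2.14) on the higher side. Of these, Acot3 and Cyp2b13 are also on the list of female-high liver genes, and Tnnc2 is on that of skeletal muscle markers.

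Tef, the thyrotroph embryonic factor, measured 106.85, 109.46 and 110.48 in Dnajb4-/- livers and 190.67, 187.39 and 211.69 in Dnajb4+/+ livers. It stood at 55.5% of the Dnajb4+/+ level, with a log2 difference of -0.85 (SE 0.05), and the genotypes did not overlap. Its 3 probe sets were all lower in Dnajb4-/- livers by different amounts. The probe set 1424175_at measured 599.75, 577.4 and 562.22 in Dnajb4-/- and 1215.15, 1141.54 and 1202.29 in Dnajb4+/+ livers, a log2 difference of -1.03. The differences of 1438033_at and 1450184_s_at were -0.97 and -0.55.

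Hlf, the hepatic leukemia factor, measured 252.6, 262.81 and 254.8 in Dnajb4-/- livers and 370.48, 371.89 and 377.67 in Dnajb4+/+ livers. It was the least lowered of the PAR bZIP factors, at 68.8% of the Dnajb4+/+ level and a log2 difference of -0.54 (SE 0.04), again without overlap. Its probe sets gave -0.41 (1434735_at) and -0.67 (1434736_at). All 3 activators were thus lower in Dnajb4-/- livers, most for Dbp and least for Hlf.

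Nfil3, the repressor that occupies the same D-boxes, ran the other way. Its single probe set measured 552.77, 578.27 and 587.7 in Dnajb4-/- livers, against 286.88, 265.73 and 320.63 in Dnajb4+/+ livers. Every Dnajb4-/- array lay above every Dnajb4+/+ array, and the mean of the 3 arrays was 572.92 (SD 18.1) for Dnajb4-/- and 291.08 (SD 27.7) for Dnajb4+/+. The log2 difference of 0.98 (SE 0.07) had rank 20 from the highest of all genes.

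**Figure D2:**
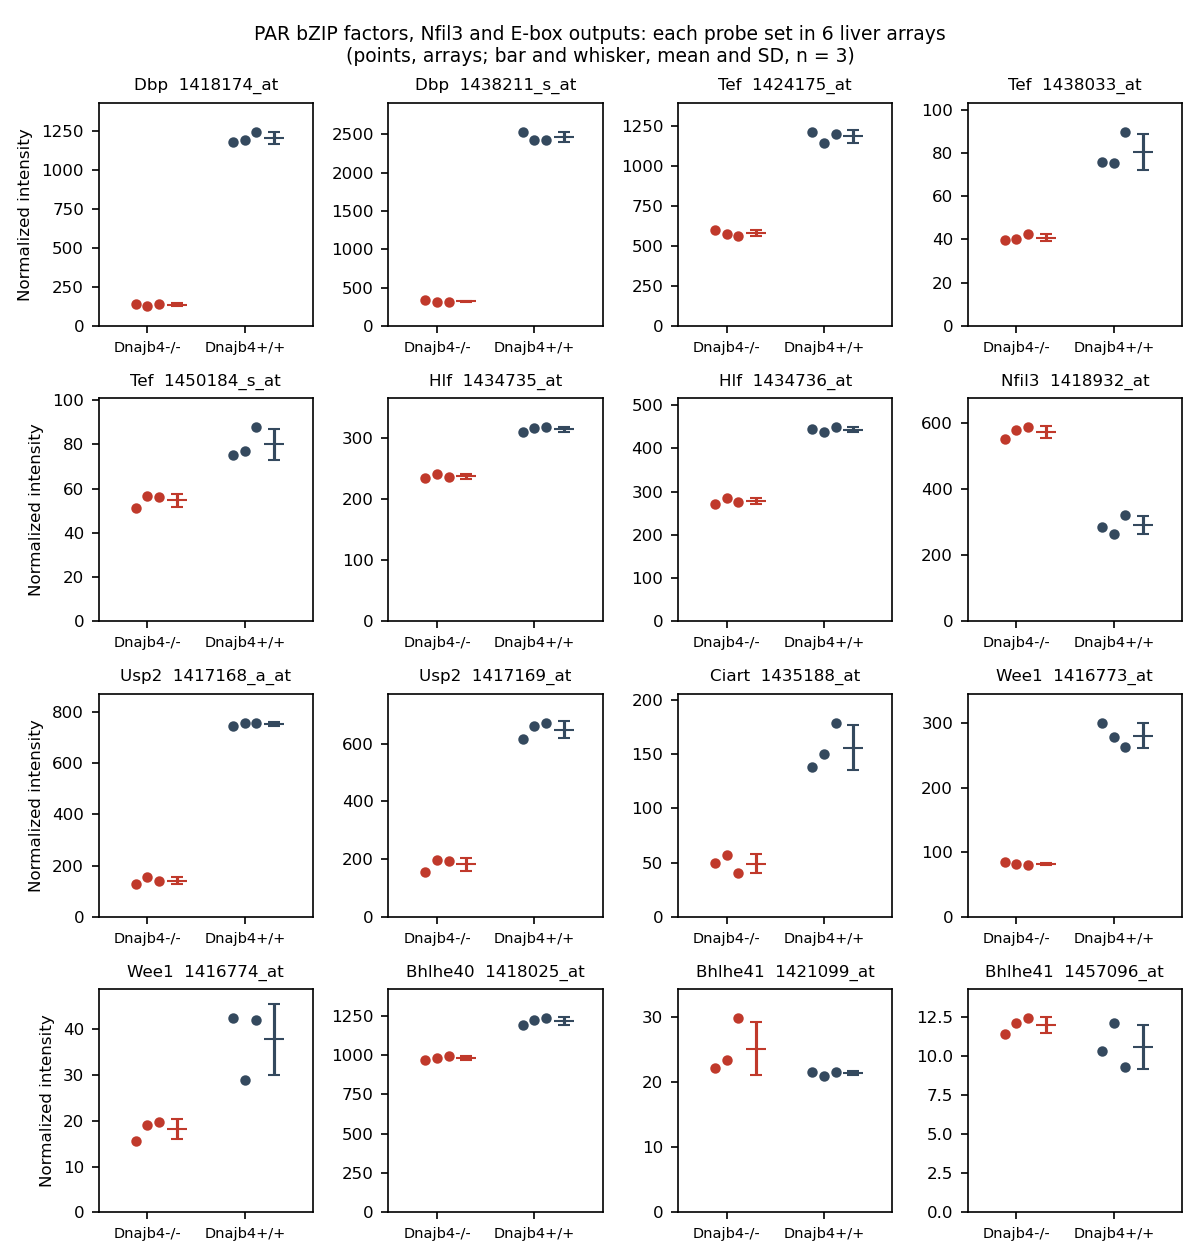
Normalized intensity (linear axis from 0) of each of the 16 probe sets in the 3 Dnajb4-/- (left, red) and 3 Dnajb4+/+ (right, blue) livers. Points are arrays, and the bar with whiskers gives mean and SD. The genotypes overlap only for 1457096_at of Bhlhe41.

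Among the E-box driven outputs, Usp2, a ubiquitin-specific peptidase that acts on clock proteins, was the most lowered. It measured 140.51, 174.32 and 163.52 in Dnajb4-/- livers, against 674.9, 705.36 and 713.24 in Dnajb4+/+ livers. The 4.39-fold lower level corresponds to a log2 difference of -2.14 (SE 0.08). Both probe sets were lower by different amounts, with -2.43 for 1417168_a_at and -1.84 for 1417169_at, so the size of the difference depends on which one is read.

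Ciart, also known as Chrono, is a repressor that binds Bmal1, and its gene lies on chromosome 3, as does Dnajb4. Its single probe set measured 50.0, 57.0 and 40.1 in Dnajb4-/- livers and 138.36, 150.1 and 178.96 in Dnajb4+/+ livers. The groups did not overlap, although the spread was the widest of the lowered genes on the log2 scale, with a difference of -1.67 (SE 0.14).

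Wee1, the kinase that phosphorylates and holds back the mitotic cyclin-dependent kinase, measured 36.2, 39.4 and 39.8 in Dnajb4-/- livers and 112.82, 89.6 and 105.15 in Dnajb4+/+ livers. Its log2 difference was -1.41 (SE 0.09). The probe sets differed by 0.72 in their log2 difference, the most of the 9 genes. The probe set 1416773_at measured 84.2, 81.4 and 80.7 in Dnajb4-/- and 300.44, 277.59 and 263.52 in Dnajb4+/+ livers, a difference of -1.77 (SE 0.06). The probe set 1416774_at measured 15.6, 19.1 and 19.7 in Dnajb4-/- and 42.4, 28.9 and 42.0 in Dnajb4+/+ livers, with -1.05 (SE 0.17), and lies near or below the array median.

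Bhlhe40 (Dec1) and Bhlhe41 (Dec2) are bHLH repressors that bind E-boxes themselves. Bhlhe40 measured 967.84, 981.01 and 991.5 in Dnajb4-/- livers and 1190.46, 1223.86 and 1233.98 in Dnajb4+/+ livers. The genotypes did not overlap, but the level in Dnajb4-/- livers was still 80.6% of that in Dnajb4+/+ livers, a log2 difference of -0.31 (SE 0.04). Bhlhe41 measured 15.9, 16.8 and 19.2 in Dnajb4-/- livers and 14.9, 15.9 and 14.2 in Dnajb4+/+ livers. These values lie below the median of the arrays and overlap between the genotypes, and the log2 difference of 0.20 (SE 0.08) did not pass. The paralogues therefore gave different pictures, Bhlhe40 being slightly lower and Bhlhe41 being measured at low signal.

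Of the 9 genes, 7 were past the threshold of the fit over all genes (limma, Benjamini-Hochberg adjusted p under 0.05) as lower, where 9.57% of all genes were, and 1 (Nfil3) as higher, where 5.09% were. Without overlap between the genotypes, 7 were lower and 1 higher, against 19.4% and 16.1% of all genes. Of the 16 probe sets, 13 passed as lower (8.34% of all probe sets) and 1 as higher (5.2%). The genes were chosen with this contrast known, so nothing is read from these counts. The median log2 difference of the 9 genes was -0.85, beside 0.008 for all genes, of which the 5th to 95th percentile spanned -0.28 to 0.22 and 75 differed by more than 2-fold. The plot of log2 differences by gene shows that Bhlhe41 alone lies within that span.

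**Figure D3:**
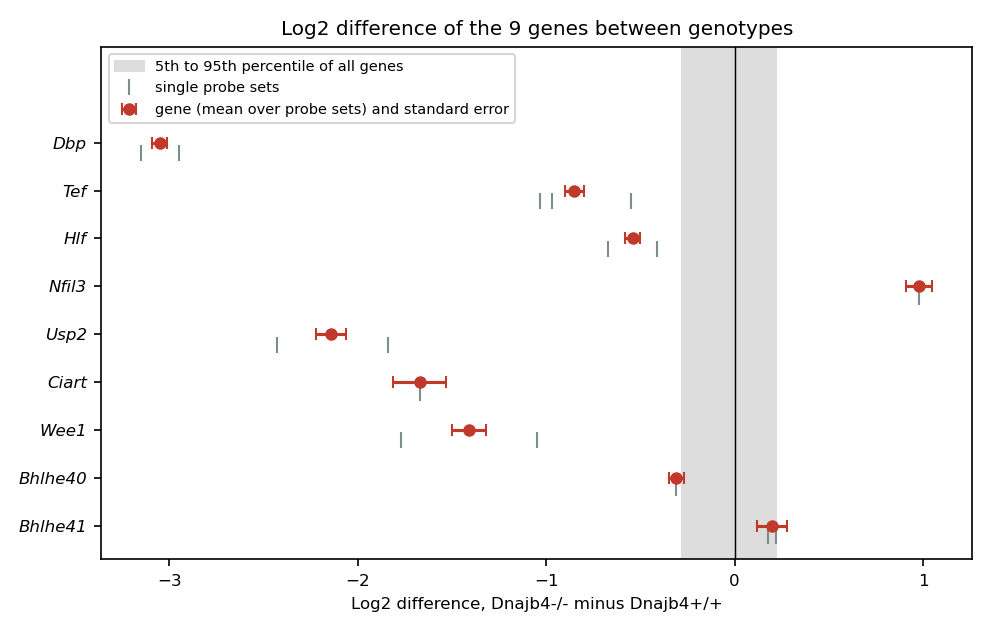
Log2 difference (Dnajb4-/- minus Dnajb4+/+) of each gene, as the mean over its probe sets with its standard error (points) and of each probe set (ticks), over the span of all genes from the 5th to the 95th percentile (grey band). Dbp lies at -3.05 and Nfil3 at 0.98, and Bhlhe41 lies within the band.

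The core clock genes, listed apart from the 9 genes, were split by direction. Of the 13 genes analysed, 6 fell, 4 rose and 3 did not pass, with a median log2 difference of 0.00 and a range of -1.03 to 1.24. For this list and those below, the shares over all genes were 9.57% lower and 5.09% higher. Arntl, which encodes Bmal1, was 92.3, 102.14 and 96.8 in Dnajb4-/- and 41.3, 41.8 and 40.2 in Dnajb4+/+ livers, and rose by 1.24 (SE 0.05, limma adjusted p = 1.67e-05). Its probe sets disagreed in size, since 1425099_a_at measured 287.16, 352.92 and 340.32 in Dnajb4-/- and 65.9, 62.8 and 64.6 in Dnajb4+/+ livers, and 1457740_at overlapped with a difference of 0.14. Npas2, a partner of Bmal1 like Clock, rose by 0.81 (adjusted p = 0.00136), which rests on the probe set 1421037_at with 1.55, whereas 1421036_at gave 0.07, and Clock (0.41, adjusted p = 0.00223) and Cry1, a repressor (0.70, adjusted p = 0.0014), rose too. The genes that fell were the repressors Per1, Per2, Per3, Cry2, Nr1d1 and Nr1d2. Per1 was 153.87, 155.23 and 163.93 in Dnajb4-/- and 334.4, 316.81 and 313.04 in Dnajb4+/+ livers, a log2 difference of -1.03 (SE 0.05, adjusted p = 3.16e-05). Per3 fell by 0.79 (adjusted p = 9.3e-04), with its 6 probe sets between -1.64 and 0.18. Nr1d1 and Nr1d2, the Rev-erb receptors that repress Arntl and Nfil3 through ROR elements, were at 77.4% and 66.1% of their Dnajb4+/+ levels (adjusted p = 0.00156 and 1.7e-04). Rora, Csnk1d and Csnk1e did not pass, but Rora (0.14, adjusted p = 0.0597) passed as higher under 7 of 16 alternative settings and Csnk1d (0.09, adjusted p = 0.229) under 2, so that quantile normalization gave 6 higher genes. Of the 11 core clock genes with a promoter window, Arntl held a ROR element, Per3 a D-box, Per1 and Cry1 an E-box, and Cry1, Cry2 and Nr1d1 an E′-box.

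Genes listed as targets of the PAR bZIP factors were lower with 1 exception. The list was written with earlier results of these arrays known and is no independent support. Of 13 listed, 11 were measured (Por and Cyp2a5 were not analysed here), 10 fell, none rose and 1, the hormone gene Fgf21, did not pass with 0.05 (adjusted p = 0.725), and the median was -0.73. Acot3, an acyl-CoA thioesterase, was 38.7, 42.3 and 39.7 in Dnajb4-/- and 380.4, 346.84 and 364.11 in Dnajb4+/+ livers, a log2 difference of -3.18 (adjusted p = 2.56e-07), and it is also on the list of female-high liver genes. Its single probe set, 1422925_s_at, may read more than 1 transcript. Without _s_at and _x_at probe sets Acot3 had no value, and 9 of 10 target genes were lower. Cyp7a1, the rate-limiting enzyme of bile acid synthesis, was 262.76, 287.97 and 279.74 in Dnajb4-/- and 899.52, 909.02 and 954.26 in Dnajb4+/+ livers, a log2 difference of -1.73 (adjusted p = 3.99e-06). Acot4, another thioesterase, fell by 1.14 (adjusted p = 2.62e-05), and Cyp2b10, a drug-metabolizing P450, fell by 0.78 (adjusted p = 5.14e-05). The Cyp2b10 probe sets 1422257_s_at and 1425645_s_at, which may read more than 1 transcript, gave -0.87 and -0.79. The remaining one, 1451787_at, gave -0.69. Nr1i3, the receptor CAR that governs Cyp2b10, stood at 60.2% and Alas1, the first enzyme of heme synthesis, at 61.0% of their Dnajb4+/+ levels (adjusted p = 1.35e-04 and 5.24e-05). Acot1, Acot2, Abcb1a and Ppara had log2 differences of -0.74, -0.60, -0.49 and -0.23. Abcb1a lost its call under 6 of 15 alternative settings, 4 of them with 1 array left out (Dnajb4-/- replicate 1 or 3, or Dnajb4+/+ replicate 1 or 3; adjusted p = 0.054 to 0.0577), and with the brightest probe set of each gene both Abcb1a (-0.45, adjusted p = 0.0895) and Ppara (-0.14, adjusted p = 0.0555) did not pass, which left 8 lower. None of the 12 target genes with a promoter window held an exact D-box there, and Acot4, Fgf21 and Nr1i3 held an E-box. The differences in Xist and in the female-high liver genes stand beside the values of all the target genes, not only Acot3. Their part was not tested.

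Other transcripts that cycle in mouse liver divided again. Of the 15 genes analysed, 6 fell, 5 rose and 4 did not pass, with a median of -0.02. Coq10b, a coenzyme Q binding protein, was 286.88, 296.62 and 300.29 in Dnajb4-/- and 739.35, 725.12 and 721.04 in Dnajb4+/+ livers, and fell by 1.31 (adjusted p = 4.05e-06); its promoter window held both a D-box and an E-box. Elovl3, a fatty acid elongase, was 7191.58, 7725.61 and 7767.42 in Dnajb4-/- and 3166.31, 3100.67 and 3293.09 in Dnajb4+/+ livers, and rose by 1.25 (adjusted p = 1.67e-05). Slc45a3, a solute carrier, and Lonrf3 rose by 1.00 and 0.93 (adjusted p = 1.02e-05 and 1.49e-04). The fallen genes included Rgs16 (-0.88), a regulator of G protein signaling, and Gys2 (-0.78), the liver glycogen synthase, and the risen ones included Insig2 (0.49), a brake on sterol synthesis. The differences in Xist and in the female-high liver genes stand beside the values of all these genes, Elovl3 included. Their part was not tested.

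**Figure D4:**
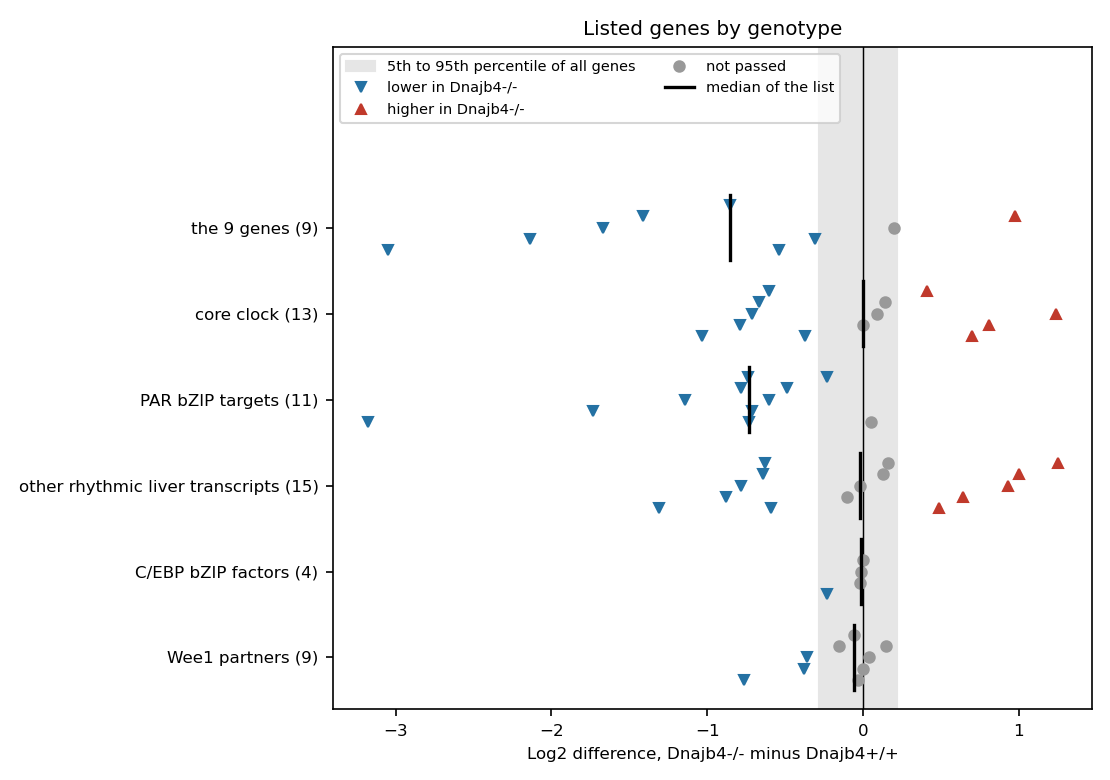
Log2 difference (Dnajb4-/- minus Dnajb4+/+) of each measured gene of the 9 genes and of 5 lists, with the number measured in brackets. Triangles mark genes past the threshold as lower (blue) or higher (red), grey points those that did not pass, black lines the medians, and the grey band the 5th to 95th percentile of all genes. The PAR bZIP targets lie on the lower side, and the core clock genes on both sides.

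The related C/EBP factors, bZIP proteins without the PAR domain, differed little. Of 4 measured, Cebpa fell by 0.23 (adjusted p = 0.00726), and Cebpb, Cebpd and Cebpg did not pass and overlapped between the genotypes. Partners of Wee1 in the cell cycle were listed as 10 genes, of which 9 were measured (Ccnb1 was not analysed here). Of these, 3 fell, none rose and 6 did not pass, with a median of -0.06, where 9.57% of all genes were lower and 5.09% higher. Ccnb2, a mitotic cyclin, was 30.8, 27.6 and 31.2 in Dnajb4-/- and 46.2, 54.8 and 51.2 in Dnajb4+/+ livers, a log2 difference of -0.76 (adjusted p = 0.00114). Cdk1, the kinase that Wee1 phosphorylates, had a difference of -0.38 (adjusted p = 0.0336) and Ccne1, a cyclin of the entry into S phase, one of -0.36 (adjusted p = 0.0431), and their calls were lost under 5 and 11 of 16 alternative settings, at adjusted p of up to 0.126 for Cdk1 and 0.146 for Ccne1. Myt1 (Pkmyt1), the sister kinase of Wee1, had a difference of 0.00 and its values overlapped between the genotypes.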

How the data were processed

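Total RNA, labelled as that of 6 separate livers, was hybridized to Affymetrix Mouse Genome 430 2.0 arrays. The authors processed the arrays in GeneSpring with GCRMA, which corrects the background by probe GC content and normalizes between arrays, followed by centring on the global median. The deposited processed table used here gives linear intensities from 3.90 upwards, 1 per probe set and array. Raw signals and detection calls were not used here, so that dim probe sets cannot be told from background. Of 45101 probe sets, 64 controls were left out of the fits, 34958 carried a single gene symbol, 932 several and 9211 none. After log2 transformation of 34945 probe sets, the mean over the probe sets of a gene gave 18193 gene values. Probe sets with the suffix _s_at may read more than 1 transcript. The genotype contrast was fitted by limma 3.58.1 under R 4.3.3 (lmFit, eBayes, two-sided, no filter), with Benjamini-Hochberg adjustment over all features and a threshold of 0.05. The number of arrays limits the precision. Named are all 9 genes with their probe sets, up to 4 called genes of each list by size of difference (up to 2 where none passed), and the 3 genes on either side of Dbp in the ranking, without symbols that start with Gm or LOC or hold Rik; other listed genes that are named were chosen after their values were seen. The 9 genes and the lists were chosen with earlier results of these data known, and target lists rest on general knowledge of the pathway. Promoter windows came from RefSeq (GRCm38.p6) and were searched in python 3.11.15; gene identifiers of 99.4% of probe sets were found in RefSeq. The procedure was tested on simulated data. Figures were drawn with matplotlib 3.10.9. Protein sequences were not analysed here. Alternatives covered normalization, centring, a filter on dim genes, the value per gene, an offset of 16, the variance model, ordinary t statistics, a replicate block and each array left out.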

Additional observations from a re-analysis of the deposited data

How the results depend on the processing

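Under 16 alternative settings the 9 genes kept the direction and the side of the threshold in 143 of 143 fitted values (Bhlhe41 could not be fitted above the median signal), and the counts of 7 lower and 1 higher did not move. Leaving out each array gave log2 differences of -3.07 to -3.01 for Dbp, 0.92 to 1.05 for Nfil3 and -1.79 to -1.54 for Ciart. The probe set 1416774_at of Wee1 lost its call when the variance of each feature was used alone (-1.05, adjusted p = 0.0618). Deviations of same-numbered arrays correlated at -0.0212, -0.141 and 0.00907, and those of different-numbered arrays at -0.102 to 0.121. Deviations from a mean of 3 arrays are tied to each other. Whether replicate numbers pair the arrays is therefore not settled by these values. With the replicate block, which leaves fewer degrees of freedom for the variance, 1024 genes were lower and 505 higher, instead of 1741 and 926. Leaving out 1 array gave 1036 to 1352 lower and 516 to 657 higher genes, with the lowest counts without Dnajb4+/+ replicate 1. The higher share of called genes was 34.7%, and became 48.6% (1381 higher and 1460 lower) after centring on brighter probe sets. Among the Wee1 partners 1 gene, Cdc25a, was higher after quantile normalization, after centring on brighter probe sets and above the median signal, and 1 gene was lower with the variance of each feature alone. Leaving out 1 array gave 1 to 2 lower partners and 0 higher, with 1 lower without Dnajb4-/- replicate 1 or 2 or without Dnajb4+/+ replicate 2 or 3. Npas2 lost its call with the brightest probe set (0.07, adjusted p = 0.721), and Abcb1a under 6 settings and Ppara under 1. Quantile normalization gave 6 higher core clock genes instead of 4. With 1 mismatch allowed, 1 promoter window held a D-box. The arrays carry no depth, and signal near or below the array median limits, among others, Bhlhe41, Wee1 1416774_at, Npas2, Per3, Abcb1a and Ccnb2. Causes were not tested.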
